A study of Mus musculus with 44 samples.

Results

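Mouse macrophages given an extract of H9c2 cells, a line derived from rat heart, were compared with macrophages given interleukin 4 (IL-4), both after 24 h. Treatment and time in the labels chose 7 of the 44 libraries of the series, 3 of cell extract (replicates 2, 3 and 4) and 4 of IL-4 (replicates 1 to 4). The extract was used at 10 µg/mL and IL-4 at 10 ng/mL. All cells were thioglycolate-elicited peritoneal macrophages of C57BL/6 mice without a named genetic change, taken as 1 isolate pooled from several mice, selected by adherence and kept in DMEM with 10% fetal bovine serum and antibiotics. Unstimulated cultures of the same isolate at 24 h (4 libraries) were used as a common reference, given beside the comparison and not as independent evidence. The series also holds LPS cultures and the times 8 and 72 h, and its title asks how damage-associated molecules relate to M1 polarization. All replicates came from 1 isolate. Every p-value therefore measures the spread between libraries of a group, estimated over all 44 libraries, and not between mice. That spread may in part be technical. In these bulk RNA libraries, fewer cells of a type and less RNA per cell cannot be told apart.

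IL-4 binds a receptor of Il4ra with Il2rg or Il13ra1, and Janus kinases then activate the transcription factor Stat6. Stat6 turns on the genes of alternative (M2) activation, among them the arginase Arg1, the chitinase-like protein Chil3 and the secreted protein Retnla, and supports the lipid programme of the nuclear receptor Pparg. Contents of broken cells can act through Toll-like, formyl peptide and lectin receptors, which lead to NF-kB, to inflammatory cytokines and chemokines, and through interferons to the interferon-stimulated genes.

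Promoter stretches of 6 genes from both ends of the comparison are printed because they hold the short sequence patterns of those factors. The search used RefSeq windows of 300 bases, from 250 before to 50 after the gene start, on build GRCm38.p6, read on both strands. The Stat6-type pattern was TTC, any 4 bases and GAA, the NF-kB-type GGGA, any 2 bases and TTCC, and the interferon-response-type GAAA, any 2 bases and GAAA. Capitals mark each match. Retnla and Pdcd1lg2 were lower with extract than with IL-4, and the other 4 were higher.
Retnla (chr16:48842424-48842513, plus strand): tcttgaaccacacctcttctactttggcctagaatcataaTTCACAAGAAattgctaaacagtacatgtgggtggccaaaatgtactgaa
Pdcd1lg2 (chr19:29410797-29410886, plus strand): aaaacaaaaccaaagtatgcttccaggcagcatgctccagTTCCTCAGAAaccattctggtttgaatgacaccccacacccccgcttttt
Saa3 (chr7:46715752-46715841, minus strand): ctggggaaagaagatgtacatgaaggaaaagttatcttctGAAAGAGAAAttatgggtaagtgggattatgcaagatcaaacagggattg
Cxcl10 (chr5:92348999-92349139, minus strand): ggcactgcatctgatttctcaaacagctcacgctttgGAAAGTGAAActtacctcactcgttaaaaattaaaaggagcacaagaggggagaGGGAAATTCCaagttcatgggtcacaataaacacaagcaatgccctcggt
Cxcl3 (chr5:90785988-90786078, plus strand): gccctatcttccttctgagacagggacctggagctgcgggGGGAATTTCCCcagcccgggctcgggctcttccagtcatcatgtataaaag
Cxcl1 (chr5:90891134-90891224, plus strand): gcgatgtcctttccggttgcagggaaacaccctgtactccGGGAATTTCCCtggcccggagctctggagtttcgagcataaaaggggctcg
The Stat6-type matches of Retnla and Pdcd1lg2 began 145 and 82 bases before the start. Among the named genes the pattern also stood in the windows of Rbp4 and Ccl17, lower with extract, and of Lcn2, Il12a, Nlrp3, Ptges and Il18rap, higher with extract. Cxcl10 held an interferon-response-type and an NF-kB-type match, and the palindrome-like matches of Cxcl3 and Cxcl1 read on either strand, 1 base apart. Over genes at least 2-fold higher with extract, 9.87% of 780 windows held the interferon-response-type pattern, against 3.59% of 557 windows of genes at least 2-fold lower and 3.37% of the 10413 windows of tested genes. The NF-kB-type pattern stood in 2.69%, 1.26% and 1.48% of the same windows, and the Stat6-type pattern in 6.79%, 7.18% and 5.47%. The antioxidant-response-type pattern (TGAC, any 3 bases and GCA) stood in 2.05%, 3.41% and 2.72%. These shares describe letters in a short window and no binding was measured.

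Gene counts ran from 11.3 to 17.4 M (M, mega) in the extract libraries and from 7.67 to 25.1 M in IL-4 replicates 2, 3 and 4, while IL-4 replicate 1 had 0.908 M. That library also had 83.2 non-unique alignments per 100 gene counts, against 42.95 to 52.04 in the other 6. There 1 read equals 1.09 counts per M (CPM) after TMM scaling, and many genes that were high with extract were also highest in that library within the IL-4 group. Its part in the results was tested only by leaving it out, and it is named below where that matters. Libraries of 1 treatment differed by more than counting noise, so none was treated as a repeat deposit of another.

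Extract and IL-4 cultures differed in 3411 of 14537 tested genes (23.5% called at an adjusted p under 0.05, edgeR's quasi-likelihood test), 1792 higher with extract (12.3%) and 1619 lower (11.1%). At least 2-fold differences were called for 1050 genes higher (7.22%) and 747 lower (5.14%), and at least 10-fold ones for 206 and 82. The groups did not overlap in 32.4% of tested genes, with every extract library above every IL-4 library for 18% and below for 14.4%. The shares of 12.3% higher and 11.1% lower are the background for every list count below. A list count near these shares is not a result about the list. The median log2 difference over all tested genes was -0.05. Against the unstimulated cultures, which both sides share, 1700 genes rose with extract (11.7%) and 1509 fell (10.4%), while 689 rose with IL-4 (4.74%) and 692 fell (4.76%).

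**Figure D1:**
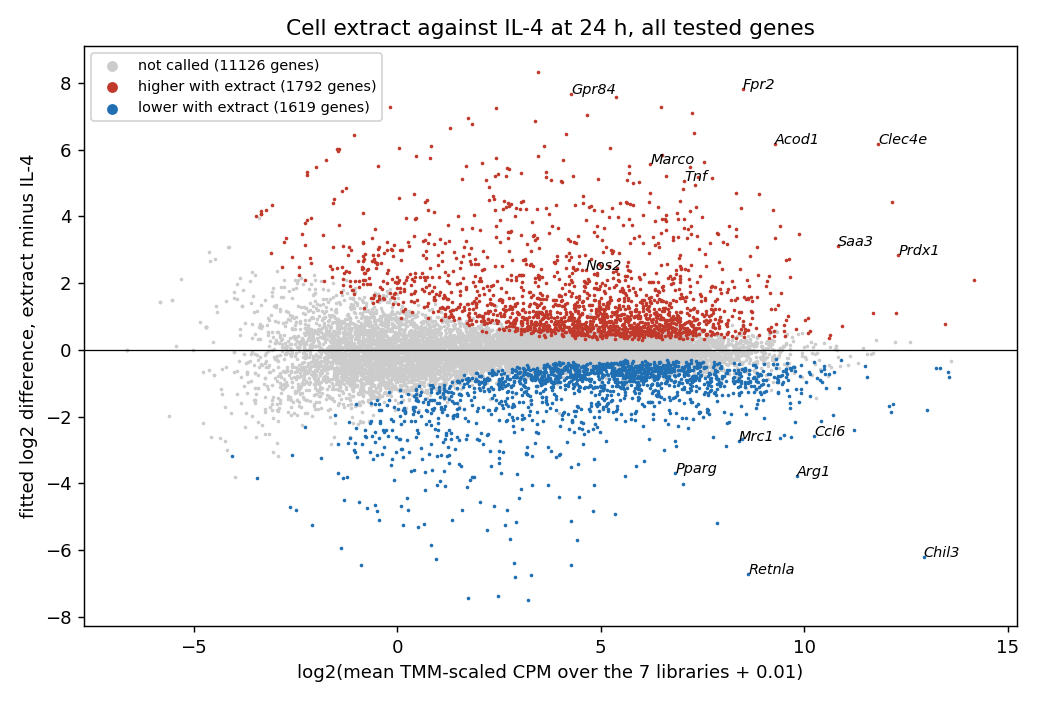
Fitted log2 difference, extract minus IL-4 (vertical axis), against the log2 of the mean level over the 7 libraries (CPM + 0.01, horizontal axis), 1 point per tested gene, coloured by call. Genes such as Fpr2 and Acod1 lie above log2 6 and Retnla and Chil3 below log2 -6.

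The 12 largest differences toward the extract included the receptors Fpr2, Fpr1 and Gpr84 and the secreted protein Lcn2. Fpr2, a formyl peptide receptor (ENSMUSG00000052270, GRCm38 chr17:17887824-17893952), stood at 909, 709 and 863 CPM with extract and at 19.6, 1.68, 3.86 and 2.85 CPM with IL-4. The fitted difference was 223-fold (log2 7.80 ± 0.64, SE; edgeR adjusted p = 8.32e-13). Every extract library was far above every IL-4 library, and unstimulated cultures held 1.498 to 6.92 CPM. Its relative Fpr1 was 85.1 to 106 CPM with extract and 0.119 to 2.18 CPM with IL-4 (log2 7.58 ± 0.68). Gpr84, a receptor for medium-chain fatty acids, stood at 45.6, 38.1 and 46.5 CPM with extract and at 4.36, 0.149, 0 and 0.119 CPM with IL-4 (log2 7.67 ± 0.46). Lcn2, an iron-siderophore-binding protein, was 154-fold higher, at 185 to 234 CPM against 0.711 to 6.54 CPM. Vnn3, a vanin-family gene, was 132-fold higher and was also lower with IL-4 than in unstimulated cultures (log2 -1.80; edgeR adjusted p = 0.014).

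Several others of the 12 largest differences had almost no reads with IL-4, so levels and counts are given in place of a fold. Pilrb1, an activating receptor gene, stood at 25.4 ± 4.40 CPM (SD, n = 3) with extract and had 3 reads over the 4 IL-4 libraries. Cd300e, another activating myeloid receptor, had 355 reads with extract and 3 with IL-4, and Wfdc21 239 and 2. Gm37549 (502 and 3 reads) and U90926 (299 and 2 reads) are given by their file names only. Pilrb2 stood at 22.3 to 25.4 CPM with extract and 0 to 1.09 CPM with IL-4, and it is close in sequence to Pilrb1, so reads could be split between them.

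The 12 largest differences toward IL-4 included the secreted proteins Chil3, Retnla and Adipoq, the transporter Slco2b1, the water channel Aqp5 and the lectin Mgl2. Chil3, a chitinase-like protein (ENSMUSG00000040809, GRCm38 chr3:106147554-106167564), stood at 15710, 14420, 12450 and 11790 CPM with IL-4 and at 92.8, 86.7 and 372 CPM with extract. It was 73.9-fold lower with extract (log2 -6.21 ± 0.73; edgeR adjusted p = 5.75e-09). The extract libraries lay within the range of the unstimulated ones, which stood at 197, 76.2, 607 and 85.0 CPM in replicates 1 to 4. Extract replicate 4 was above all of these but replicate 3. Retnla stood at 1008, 690, 550 and 506 CPM with IL-4 and at 2.30, 1.94 and 15.6 CPM with extract, a 106-fold difference (log2 -6.72 ± 0.83; edgeR adjusted p = 1.83e-08). Extract replicate 4 was the highest extract library for both genes, and without it their log2 differences were -7.24 and -8.34. Unstimulated cultures again held extract-like levels of Retnla, 2.89 to 11.4 CPM.

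Rnase2a, an eosinophil-associated ribonuclease, stood at 25.8 to 47.9 CPM with IL-4 and at 0.164 to 0.728 CPM with extract. Its close relative Ear2 had 588 reads with IL-4 and 3 with extract, and reads of such near-identical genes may be split. Chil4, close in sequence to Chil3, was at 8.72 to 14.2 CPM with IL-4 and at 0 to 0.324 CPM with extract. Mgl2, a lectin of alternatively activated macrophages, was 52.2-fold lower with extract (log2 -5.71 ± 0.63). Rbp4, a retinol carrier, and Slco2b1, an organic anion transporter, were 111-fold and 108-fold lower. Slco2b1 was also lower with extract than in unstimulated cultures (log2 -4.01; edgeR adjusted p = 2.51e-06), where it stood at 1.73 to 3.31 CPM. Adipoq, the adipokine adiponectin, had 351 reads with IL-4 and 1 with extract, Col6a5, a collagen chain, 464 and 2, and Gm6522 180 and 2. The water channel Aqp5 had 100 reads with IL-4, 1 with extract and 58 in unstimulated cultures, where it did not differ from IL-4 beyond the test's threshold (log2 0.74, IL-4 minus unstimulated). These fits rest on few extract reads, most of them in replicate 4: in replicates 2, 3 and 4 there were 1, 0 and 3 reads for Rbp4, 1, 0 and 5 for Slco2b1, 2, 0 and 4 for Chil4 and 2, 4 and 9 for Rnase2a. Without replicate 4 the first 3 have too few reads left for a fold, and the log2 difference of Rnase2a was -7.28.

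**Figure D2:**
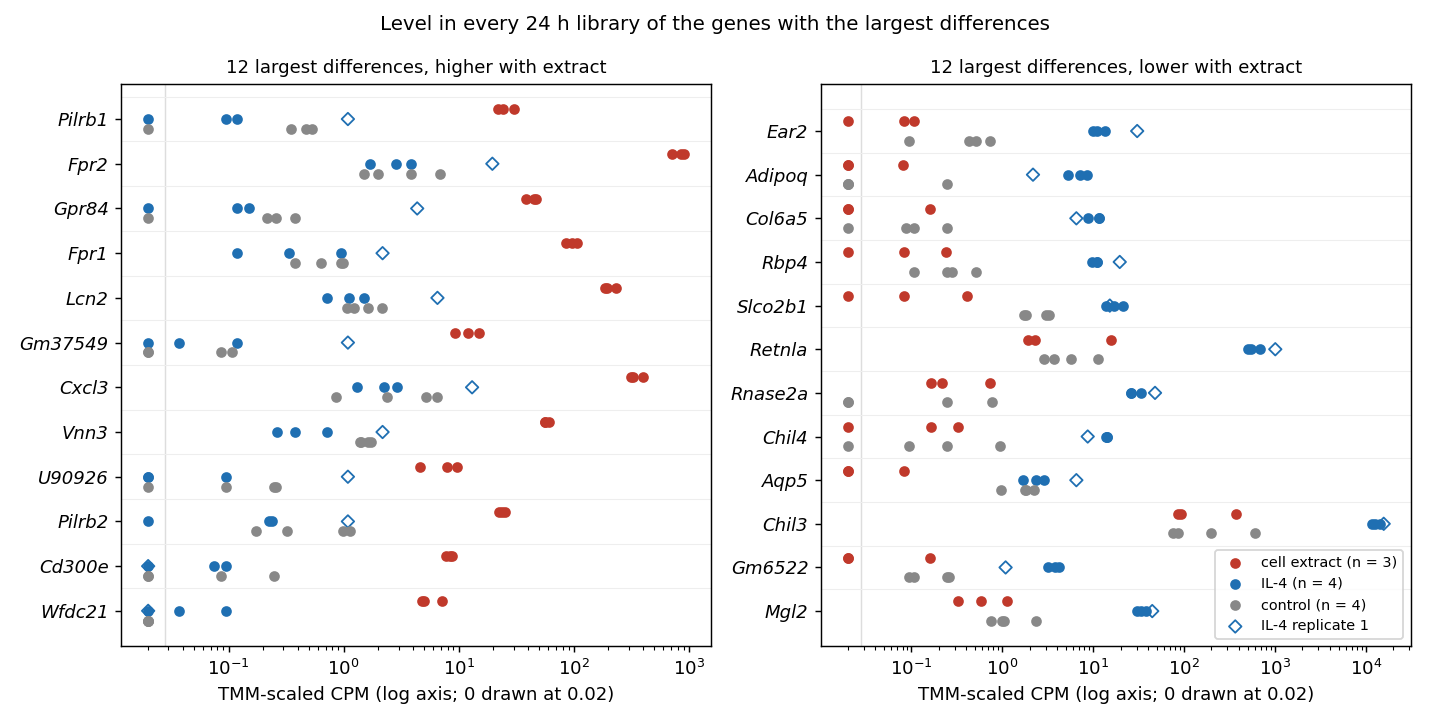
TMM-scaled CPM (log axis) in each 24 h library of the 12 genes with the largest difference in each direction; red points are extract, blue IL-4 (open diamond, replicate 1) and grey unstimulated cultures, and levels of 0 are drawn at 0.02. In the left panel grey points mostly lie among the blue ones. In the right panel they lie below the blue ones for every gene but Aqp5, either among the red ones or apart from them, as for Slco2b1.

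Receptors that sense microbes and damage were mostly higher with extract: 15 of 22 tested members were higher and 2 lower, with a median log2 of 1.12 against -0.05 over all tested genes. Tlr2, a receptor for lipoproteins, stood at 370, 395 and 360 CPM with extract and at 20.7, 7.24, 11.02 and 9.49 CPM with IL-4. It was 36.2-fold higher (log2 5.18 ± 0.36; edgeR adjusted p = 6.67e-15). Cd14, a co-receptor of Toll-like receptors, was 13.1-fold higher at 278 to 357 against 19.98 to 31.6 CPM, and was lower with IL-4 than in unstimulated cultures (log2 -0.997; edgeR adjusted p = 0.000125). Nlrp3, the inflammasome sensor, was 34.7-fold higher, and each stimulus differed from unstimulated cultures, by log2 3.09 for extract and -2.03 for IL-4. The lectin Clec4d was 10.1-fold higher with the same pattern (log2 1.68 and -1.66). Chosen after its values were seen, Clec4e, a lectin that binds the nuclear protein Sap130 of dead cells, reached 8280 ± 364 CPM with extract and 123 ± 140 CPM with IL-4. Tlr4, the LPS receptor, stood at 120 ± 11.2 and 133 ± 44.5 CPM and did not pass the test (edgeR adjusted p = 0.641).

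Genes of the NF-kB pathway were higher with extract for 16 of 20 tested members and lower for none, with a median log2 of 1.65. Inhibitors and feedback members were among them. Nfkbiz, an atypical IkB protein, stood at 112, 103 and 108 CPM with extract and at 8.72, 5.86, 3.39 and 4.62 CPM with IL-4 (21.5-fold; log2 4.43 ± 0.35; edgeR adjusted p = 3.31e-13). Nfkbie, an IkB protein, was 14.9-fold higher, Traf1, a signalling adaptor, 9.49-fold, and Birc3, a ubiquitin ligase that limits cell death, 4.48-fold. None of these 4 differed between IL-4 and unstimulated cultures beyond the threshold.

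Of 17 tested genes of STAT factors, IL-4 receptor chains and SOCS proteins, 7 were higher with extract and 3 lower (median log2 0.32). The 3 lower ones were SOCS family members that damp cytokine signals. Cish, a target of Stat5 and Stat6, stood at 31.6, 32.9, 32.5 and 30.0 CPM with IL-4 and at 1.81, 2.74 and 3.72 CPM with extract (11.5-fold lower; edgeR adjusted p = 3.37e-10). Both stimuli had raised it above the unstimulated level, by log2 6.07 and 2.55. Socs6 was 3.22-fold lower with extract, at 34.2 to 37.2 CPM against 67.5 to 134 CPM, and lower than in unstimulated cultures. Socs3, a brake on Il6-type signals, was 9.23-fold higher with extract, at 94.8 to 115 CPM against 10.2 to 18.5 CPM. Il2rg, the shared receptor chain, was 2.62-fold higher with extract. Named here for their place in the pathway, Il4ra was 1.96-fold higher with extract and Stat6 stood at 101 ± 2.63 and 107 ± 19.2 CPM without passing the test (edgeR adjusted p = 0.799).

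Inflammatory cytokines and enzymes were higher with extract for 12 of 16 tested members and lower for none (median log2 3.60). Tnf stood at 236, 323 and 311 CPM with extract and at 38.1, 3.62, 6.69 and 6.52 CPM with IL-4 (33.3-fold; log2 5.06 ± 0.73; edgeR adjusted p = 5.48e-07). Il1b stood at 179, 236 and 220 CPM against 30.5, 2.05, 6.03 and 3.08 CPM (36.9-fold), and its reads cannot be told apart from those of the antisense Il1bos. For both genes the groups did not overlap, and the highest IL-4 value was that of the shallow replicate 1. Il6 stood at 49.1, 201 and 88.9 CPM against 19.6, 1.64, 2.45 and 1.90 CPM (38.9-fold), and Il12b, a subunit of interleukins 12 and 23, at 6.57, 22.8 and 9.87 CPM against 5.45, 0.187, 0.189 and 0.119 CPM (43.3-fold). Extract replicate 3 was the highest for both. Il12a, the partner of Il12b, was 56.1-fold higher with extract, and Ebi3, a subunit of interleukins 27 and 35, 11.7-fold.

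Il1a, an alarmin form of interleukin 1, was 9.39-fold higher with extract at 470 to 633 against 47.7 to 77.3 CPM. The neutrophil growth factor Csf3 had 172 reads with extract and 2 with IL-4. Nos2, the inducible nitric oxide synthase, stood at 31.6, 61.9 and 44.1 CPM with extract and at 9.80, 7.21, 9.42 and 9.61 CPM with IL-4 (5.24-fold; edgeR adjusted p = 0.000115). It had risen above the unstimulated level on both sides, by log2 4.33 with extract and 1.94 with IL-4 (edgeR adjusted p = 0.0153). Among the antagonists, Il1rn, the interleukin 1 receptor antagonist, was 4.42-fold higher with extract and lower with IL-4 than in unstimulated cultures (log2 -1.41). Il18bp, which binds interleukin 18, was 4.28-fold higher. In that list of 10 tested interleukin 1 family receptors and antagonists, 4 were higher and 1 lower. The lower one was Il1rl1, the interleukin 33 receptor (2.41-fold), whose adjusted p was 0.0515 without extract replicate 3. Il18rap, a chain of the interleukin 18 receptor, was 4.10-fold higher at 1.72 to 1.81 CPM.

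Without IL-4 replicate 1 the log2 differences of these genes were larger, at 5.77 for Tnf, 5.92 for Il1b, 5.91 for Il6, 6.21 for Il12b and 8.54 for Gpr84. Without extract replicate 3 they were 4.56 for Il6 and 4.74 for Il12b.

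All 15 tested inflammatory chemokines differed, 12 higher with extract and 3 lower (median log2 3.39). Cxcl3, which draws neutrophils, stood at 327, 314 and 402 CPM with extract and at 13.1, 1.31, 2.92 and 2.25 CPM with IL-4 (135-fold; log2 7.08 ± 0.83; edgeR adjusted p = 6.34e-09). Cxcl1, of the same family, was 32.7-fold higher at 127 to 145 against 2.85 to 15.3 CPM. Cxcl16, a membrane-bound chemokine and scavenger receptor, was 11.03-fold higher, and Ccl4, which draws T cells and monocytes, 10.7-fold. Ccl6 went the other way, at 306, 312 and 323 CPM with extract and 1842, 2121, 1884 and 1737 CPM with IL-4 (6.05-fold lower; log2 -2.60 ± 0.17; edgeR adjusted p = 1.12e-15). Unstimulated cultures were between them at 432 to 612 CPM. With Ccl6 included, the summed level of the list overlapped between the groups, at 2597 to 3374 CPM with extract and 2375 to 2972 CPM with IL-4. The other 2 lower members were Ccl8 and Ccl9 (log2 -0.80 and -0.74), and without extract replicate 2 the count of lower members was 1.

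All 34 tested interferon-stimulated genes were higher with extract, with a median log2 of 3.40, and 34 were also higher than in unstimulated cultures. Over all tested genes these shares were 12.3% and 11.7%. Cxcl10, an interferon-induced chemokine, stood at 58.4, 214 and 84.2 CPM with extract and at 26.1, 1.49, 3.02 and 2.61 CPM with IL-4 (31.8-fold; log2 4.99 ± 0.95; edgeR adjusted p = 6.54e-05). Its reads cannot be separated from those of the overlapping Art3, and its log2 difference was 5.78 without IL-4 replicate 1 and 4.24 without extract replicate 3. Irgm1, an interferon-inducible GTPase, stood at 323, 372 and 340 CPM against 43.6, 41.2, 41.2 and 43.5 CPM (8.15-fold; edgeR adjusted p = 1.07e-18). Rtp4 was 15.1-fold and the antiviral Oasl2 7.52-fold higher.

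MHC class I presentation genes were higher with extract for 13 of 18 tested members and lower for none (median log2 1.15). Tap1, which carries peptides into the endoplasmic reticulum, was 4.30-fold higher at 208 to 237 against 45.3 to 68.6 CPM. Nlrc5, the activator of class I genes, was 5.09-fold higher, the loading protein Tapbp 3.01-fold and H2-Q4 2.81-fold. H2-Q genes are near-identical and their reads may be shared. MHC class II genes showed no such shift between the stimuli, with 1 of 12 higher and 2 lower (median log2 -0.18). Over all tested genes 12.3% were higher and 11.1% lower. Against unstimulated cultures the extract raised 5 of the 12 and lowered 1, and IL-4 raised 6 and lowered 0. Over all tested genes the extract raised 11.7% and lowered 10.4%, and IL-4 raised 4.74% and lowered 4.76%. The summed level of the list, mostly Ctss, was 9781 to 10300 CPM with extract and 14470 to 15970 CPM with IL-4. H2-Eb1 was 1.52-fold lower, but its adjusted p was 0.137 without IL-4 replicate 1, 0.0629 without extract replicate 2 and 0.0926 without extract replicate 3. H2-Aa stood at 244 to 259 and 297 to 399 CPM and did not pass the test. Ctss, a protease that cuts the invariant chain, was 1.58-fold lower at 8699 to 9060 against 13270 to 14810 CPM. H2-Oa had 50 reads with extract and 3 with IL-4, all in replicate 2.

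Of 11 tested costimulatory and checkpoint ligands 8 were higher with extract and 1 lower (median log2 2.06). Cd86, a ligand of Cd28, stood at 36.5, 50.0 and 33.9 CPM with extract and 16.3, 9.71, 10.9 and 10.1 CPM with IL-4 (3.73-fold; edgeR adjusted p = 7.64e-11). Tnfsf9 was 13.04-fold and Tnfsf15 22.1-fold higher, both ligands of the TNF family. Icosl was 22.3-fold higher and was lower with IL-4 than in unstimulated cultures (log2 -2.34). Pdcd1lg2, the second ligand of Pd-1, belongs to the IL-4 genes below and went the other way.

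Of 15 tested genes of anti-inflammatory feedback 7 were higher with extract and 3 lower (median log2 0.56). Acod1, the enzyme that makes itaconate, stood at 1447, 1373 and 1431 CPM with extract and at 75.2, 6.68, 14.5 and 8.89 CPM with IL-4 (72.4-fold; edgeR adjusted p = 3.58e-08), and its log2 difference went from 6.18 to 7.20 without IL-4 replicate 1. Irak3, a brake on Toll-like receptor signals, was 8.73-fold higher and Dusp16, a kinase phosphatase, 2.50-fold. Tsc22d3, a glucocorticoid-induced gene, was 2.12-fold lower at 66.1 to 70.2 against 132 to 151 CPM. Acute-phase and granule proteins were higher for 8 of 10 tested members and lower for none (median log2 3.62). Haptoglobin, Hp, stood at 326, 365 and 391.8 CPM with extract and 10.9, 2.65, 4.52 and 4.03 CPM with IL-4 (89.4-fold). Saa3, a serum amyloid A protein, was 8.57-fold higher at 3086 to 4477 against 262 to 879 CPM (log2 3.10, or 3.74 without IL-4 replicate 1), and the protease inhibitor Slpi 17.7-fold.

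**Figure D3:**
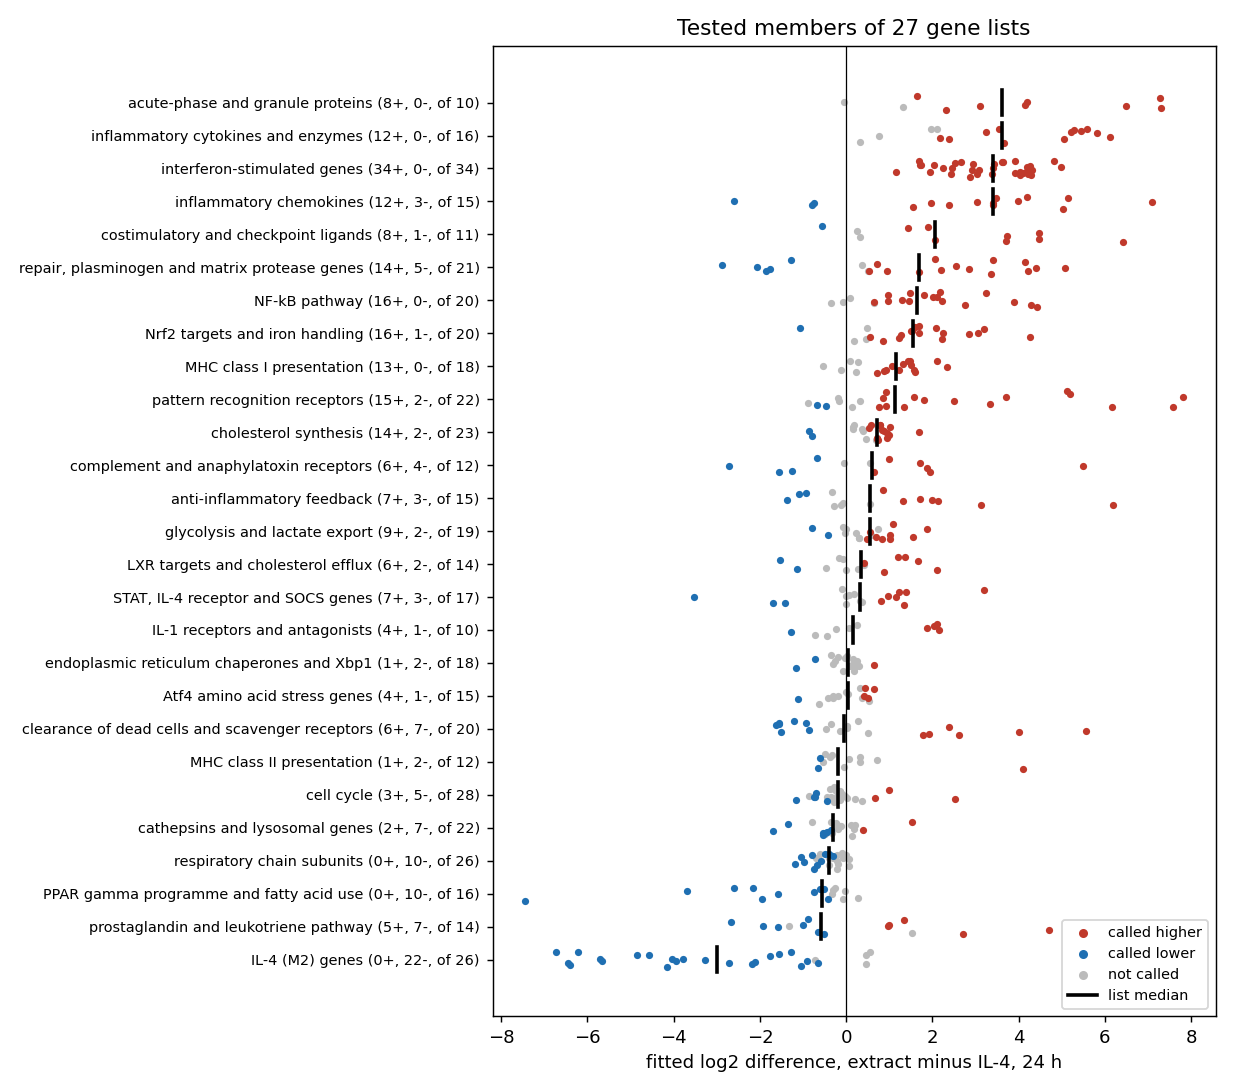
Fitted log2 difference, extract minus IL-4, of every tested member of 27 gene lists (1 point per gene, coloured by call, with vertical jitter); the black bar is the list median, and the labels give how many members were called higher (+) and lower (-). The 34 interferon-stimulated genes all lie to the right of 0 and 22 of the 26 IL-4 genes are called lower.

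Genes of IL-4 driven activation were lower with extract for 22 of 26 tested members and higher for none, with a median log2 of -3.00. Of the 30 list entries, 26 passed the filter on low counts, so this is not a statement on every entry. Arg1 (ENSMUSG00000019987, GRCm38 chr10:24915221-24927484) stood at 1626, 1475, 1503 and 1398 CPM with IL-4 and at 87.2, 99.5 and 140 CPM with extract. It was 13.8-fold lower (log2 -3.78 ± 0.38; edgeR adjusted p = 1.17e-10). The extract had itself raised Arg1 above the 12.4 to 36.2 CPM of unstimulated cultures (log2 2.36; edgeR adjusted p = 4.08e-07). For Chil3 and Retnla, extract and unstimulated levels did not differ beyond the threshold (edgeR adjusted p = 0.704 and 0.953). Irf4, a factor of M2 activation, was 16.4-fold lower at 2.71 to 3.16 against 30.5 to 54.7 CPM. Pdcd1lg2 was 28.6-fold lower at 0.821, 1.18 and 3.08 CPM against 49.0, 45.5, 48.0 and 49.1 CPM, and its log2 difference went from -4.84 to -5.52 without extract replicate 4.

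Mrc1, the mannose receptor, stood at 317, 606, 592 and 602 CPM with IL-4 and 82.2, 85.2 and 73.5 CPM with extract (6.61-fold lower; edgeR adjusted p = 8.75e-11). Here the extract cultures were also lower than the unstimulated ones (194 to 210 CPM; log2 -1.33; edgeR adjusted p = 6.48e-05). Mrc1 reads cannot be told apart from the overlapping Mir511 transcript. The chemokine Ccl17, which draws type 2 T cells, had 116 reads with IL-4, 8 with extract and 0 in the unstimulated cultures (15.3-fold lower with extract; edgeR adjusted p = 2.09e-05). The 4 members not called were Tgm2, Ch25h, Slc7a2 and F13a1. Against unstimulated cultures, IL-4 raised 25 of the 26 and lowered 1, while the extract raised 6 and lowered 3. Over all tested genes IL-4 raised 4.74% and lowered 4.76%, and the extract raised 11.7% and lowered 10.4%.

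The lipid programme of Pparg was lower with extract for 10 of 16 tested genes and higher for none (median log2 -0.56). Pparg stood at 13.6, 15.96 and 14.8 CPM with extract and 139, 210, 212 and 195 CPM with IL-4 (12.9-fold lower; log2 -3.69 ± 0.22; edgeR adjusted p = 8.50e-17). Both sides moved from the unstimulated 82.3 to 99.3 CPM, down by log2 -2.58 with extract and up by 1.11 with IL-4. Fabp4, a fatty acid carrier, was 6.07-fold lower at 167 to 232 against 979 to 1733 CPM. Plin2, which coats lipid droplets, was 4.44-fold lower. For Fabp4 and Plin2, IL-4 did not differ from unstimulated cultures beyond the threshold, and the extract was lower than both.

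Cholesterol synthesis genes were higher with extract for 14 of 23 tested members and lower for 2 (median log2 0.71). The differences were small but larger than the spread, as in Lss, lanosterol synthase, with 43.8, 44.7 and 42.6 CPM against 24.0, 24.6, 23.8 and 25.3 CPM (1.78-fold; edgeR adjusted p = 2.89e-07). Cyp51, a sterol demethylase, was 1.73-fold higher. Dhcr7, the last enzyme of one branch, was 1.82-fold lower with extract, and here IL-4 was above the unstimulated level (log2 0.89). Of 14 tested LXR targets 6 were higher and 2 lower, against 12.3% and 11.1% of all tested genes. The cholesterol exporters split: Abca1 was 4.29-fold higher with extract at 607 to 757 against 91.5 to 188 CPM, and Abcg1 2.89-fold lower at 111 to 112 against 265 to 347 CPM. Of the apolipoproteins, Apoc2 was 3.17-fold higher and Apoe 2.20-fold lower. Apoe stood at 4187 CPM in IL-4 replicate 1 and at 1753 to 1890 CPM in the other IL-4 libraries. Its log2 difference was -1.14, and -0.70 without IL-4 replicate 1 (edgeR adjusted p = 0.00101).

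Nrf2 targets and iron genes were higher with extract for 16 of 20 tested members and lower for 1, the transferrin receptor Tfrc (median log2 1.56). Slc7a11, which imports cystine for glutathione, stood at 852, 725 and 714 CPM with extract and at 33.8, 42.5, 40.3 and 41.4 CPM with IL-4 (19.1-fold; log2 4.25 ± 0.25; edgeR adjusted p = 9.64e-17). Gclm, a subunit of the enzyme that starts glutathione synthesis, was 9.20-fold higher and the thioredoxin reductase Txnrd1 3.02-fold. The peroxiredoxin Prdx1 reached 9411, 9774 and 10800 CPM with extract against 1832, 1402, 1250 and 1096 CPM (7.17-fold). Unstimulated levels of these 4 genes did not differ from those with IL-4 beyond the threshold.

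Glycolysis and lactate genes were higher for 9 of 19 tested members and lower for 2 (median log2 0.56). Pfkl, a phosphofructokinase, was 3.69-fold higher, the lactate exporter Slc16a3 2.91-fold, the glucose transporter Slc2a1 2.105-fold and Pfkfb3, a regulator of phosphofructokinase, 2.01-fold. Subunits of the respiratory chain were called lower for 10 of 26 and higher for none, but only 1 was called without IL-4 replicate 1, 1 without extract replicate 2, 1 without extract replicate 3 and 0 in a fit of the 7 libraries alone. Cox4i1, a cytochrome c oxidase subunit, stood at 1205 CPM in IL-4 replicate 1, 363 to 405 CPM in the other IL-4 libraries and 255 to 351 CPM with extract. Its log2 difference was -0.97 (edgeR adjusted p = 0.00445) and -0.33 without that library (edgeR adjusted p = 0.246). Ndufb9 went from -1.19 to -0.27, Ndufs7 from -1.05 to -0.23 and Atp5o from -0.68 to -0.31, and none of the 3 was then called.

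Endoplasmic reticulum chaperones differed little between the stimuli, with 1 of 18 higher with extract and 2 lower (median log2 0.05). Each stimulus raised 13 of the 18 above the unstimulated level. Over all tested genes the extract raised 11.7% and IL-4 4.74%, so equal counts stand against unequal shares. Xbp1, the factor of the unfolded protein response, was 1.66-fold lower with extract at 158 to 161 against 235 to 313 CPM. Pdia4, a disulphide isomerase, was called lower (2.23-fold), yet IL-4 replicate 1 at 46.8 CPM lay below the extract libraries (99.5 to 108 CPM) while the other 3 stood at 271 to 298 CPM. Hyou1 was 1.57-fold higher, and Sel1l did not pass the test. Neither Pdia4 nor Hyou1 was called in a fit of the 7 libraries alone (edgeR adjusted p = 0.145 and 0.079). Of 15 Atf4-type amino acid stress genes 4 were higher and 1 lower, against 12.3% and 11.1% of all tested genes. Asns, asparagine synthetase, was 1.55-fold and Mthfd2, a mitochondrial folate enzyme, 1.41-fold higher. The stress factor Ddit3 was called lower (log2 -1.11), with 159 CPM in IL-4 replicate 1 and 48.6 to 63.1 CPM in the other 3. Its log2 difference was -0.61 without that library, and it was not called in a fit of the 7 libraries alone (edgeR adjusted p = 0.0928). Slc3a2 was 1.33-fold higher (edgeR adjusted p = 0.0321) and lost its call when any of IL-4 replicates 2, 3 and 4 or extract replicates 3 and 4 was left out, at adjusted p values of 0.0606 to 0.122.

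Of 28 tested cell cycle genes 3 were higher and 5 lower (median log2 -0.20), against 12.3% and 11.1% of all tested genes. No shift of the list is read from these counts. Ccnd2, a G1 cyclin, was 5.77-fold higher at 11.5, 26.98 and 15.2 against 2.80 to 4.36 CPM. Mki67, a proliferation marker, was 1.98-fold and E2f1, a factor of S-phase entry, 1.58-fold higher, while the replication helicase subunit Mcm2 was 1.62-fold lower. The count of lower members was 3 without IL-4 replicate 1 and 1 without extract replicate 2. Of 22 cathepsins and lysosomal genes 2 were higher and 7 lower (median log2 -0.31), against the same 12.3% and 11.1%. Ctsl, a lysosomal protease, stood at 1628 to 2119 CPM with extract and 6117 to 6269 CPM with IL-4 (3.23-fold lower; edgeR adjusted p = 1.08e-12), with unstimulated cultures between at 3711 to 4518 CPM. Tfeb, a factor that turns on lysosomal genes, was 2.56-fold and Ctsb 1.46-fold lower, whereas Ctsc was 2.87-fold higher. Tfeb stood at 83.9 CPM in IL-4 replicate 1 and at 34.9 to 40.8 CPM in the other IL-4 libraries. Its log2 difference was -1.36, and -1.05 without IL-4 replicate 1.

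Receptors that clear dead cells and scavenge lipids split, with 6 of 20 tested members higher with extract and 7 lower (median log2 -0.06). Marco, a scavenger receptor, stood at 160, 167 and 179 CPM with extract and at 3.27, 3.36, 3.86 and 3.68 CPM with IL-4 (46.9-fold; log2 5.55 ± 0.34; edgeR adjusted p = 2.43e-16). Timd4, a receptor for phosphatidylserine on dying cells, was 16.03-fold higher, Scarf1 5.21-fold and Msr1 3.80-fold. The 7 lower members, given after their values were seen, were Cd36, C1qb, Havcr2, C1qc, Pros1, Cd93 and Mfge8, from 3.10-fold for Cd36, a receptor for fatty acids and oxidised lipids, to 1.81-fold for Mfge8, which bridges dying cells to phagocytes. The summed level of the list was lower with extract, at 5224 to 5680 against 8229 to 11660 CPM. Complement genes were higher for 6 of 12 tested members and lower for 4. Cfb, a protease of the alternative pathway, was 45.1-fold higher at 108 to 128 against 1.68 to 8.72 CPM, and C3 3.65-fold. The anaphylatoxin receptors moved apart, C5ar1 being 3.85-fold higher and C3ar1 2.37-fold lower with extract.

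Repair, plasminogen and matrix protease genes were higher with extract for 14 of 21 tested members and lower for 5 (median log2 1.68). Mmp9, a gelatinase, stood at 113, 110 and 114 CPM against 2.18, 2.84, 3.11 and 4.51 CPM (33.8-fold; edgeR adjusted p = 3.85e-20). Mmp9 was also lower with IL-4 than in unstimulated cultures, by log2 -1.16. Serpinb2, a plasminogen activator inhibitor, was 10.2-fold and Thbs1, a matrix protein that activates Tgfb1, 7.16-fold higher. The 5 lower members, given after their values were seen, were the protease gene Mmp19 (7.31-fold), the growth factor gene Igf1 (4.17-fold), the elastase gene Mmp12 (3.62-fold), the inhibitor gene Timp2 (3.38-fold) and the collagenase gene Mmp13 (2.44-fold). The summed level of the list was lower with extract, at 4005 to 4310 against 5651 to 9887 CPM, the opposite direction to its median. In the prostaglandin and leukotriene pathway 5 of 14 were higher and 7 lower (median log2 -0.58). Ptges, the inducible prostaglandin E synthase, was 25.8-fold higher at 149 to 182 against 6.01 to 8.72 CPM. Pla2g7, which degrades platelet-activating factor, was 6.57-fold and the phospholipase Pla2g4a 2.55-fold higher. Ptgs1, the constitutive cyclooxygenase, was 3.81-fold lower with extract, at 28.3 to 31.2 against 106 to 136 CPM.

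Marker lists of the cells a peritoneal isolate could hold were checked in the same libraries. Beside the marker counts below stand the shares over all tested genes, 12.3% higher with extract and 11.1% lower. Macrophage genes dominated, with a summed level of 18980 to 19480 CPM with extract and 10440 to 11580 CPM with IL-4. The following genes were chosen after their values were seen. Adgre1, the macrophage marker F4/80, stood at 1960 ± 154 and 176 ± 32.6 CPM (11.04-fold; edgeR adjusted p = 6.52e-17), and Gata6, the factor of resident peritoneal macrophages, at 2.75 ± 1.02 and 10.4 ± 3.36 CPM. Of the macrophage list 6 of 12 were higher and 2 lower. Of 12 tested mesothelial and fibroblast markers 8 were lower with extract and none higher, with sums of 230 to 242 against 282 to 426 CPM. The keratin Krt18, a mesothelial gene, stood at 0.0449 ± 0.0412 CPM with extract, 2.70 ± 1.86 CPM with IL-4 and 0.321 ± 0.164 CPM unstimulated.

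Neutrophil markers were higher for 3 of 4 tested (of 10 entries), with sums of 174 to 215 against 49.6 to 78.4 CPM. Ngp was at 0 in all 7 libraries, and with extract S100a8 was the most abundant at 148 ± 23.1 CPM. Dendritic cell markers summed to 182 to 241 against 54.1 to 116 CPM, with 2 of 7 higher, and T and NK cell markers to 9.57 to 12.6 against 3.25 to 5.45 CPM, with 5 of 8 higher (1 of 8 without IL-4 replicate 2). Eosinophil and mast cell markers were lower for 2 of 8 (sums 6.24 to 7.53 against 16.4 to 19.2 CPM), with Epx at 0. Muscle markers summed to 31.7 to 36.7 against 13.2 to 19.6 CPM with Myod1 and Nppa at 0, and 2 of 4 tested were higher, while B cell markers had no call in 7. Some of these genes, such as Ly6c2, Bst2 or S100a8, are also expressed by macrophages. The part of other cells in the differences above, including those of neutrophil-attracting chemokines and acute-phase genes, was not tested.

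**Figure D4:**
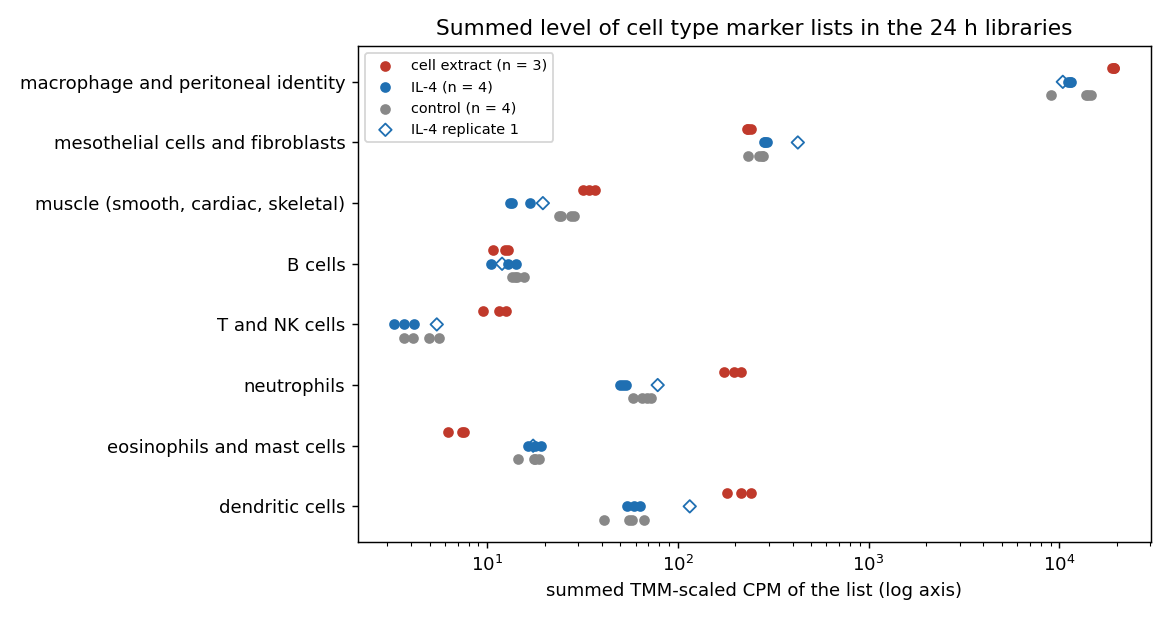
Summed TMM-scaled CPM (log axis) of each marker list in every 24 h library; red is extract, blue IL-4 (open diamond, replicate 1) and grey unstimulated. Macrophage markers sum to at least 9055 CPM in every library, and those of neutrophils to at most 215 CPM.

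The same difference was read at 8 and 72 h for 11 genes, to see whether it had changed at 24 h. At 8 h there were 4 libraries a group and at 72 h 3. Over all genes, the extract minus IL-4 difference changed from 8 to 24 h for 5.54% of those tested and from 24 to 72 h for 3.22%. Arg1 changed at both steps, from log2 -6.88 ± 0.39 at 8 h to -3.78 ± 0.38 at 24 h and -1.38 ± 0.35 at 72 h (edgeR adjusted p = 1.10e-05 and 0.00158). Ccl17 went from -0.38 ± 0.66 at 8 h to -3.94 ± 0.67 at 24 h (edgeR adjusted p = 0.0158). For the other 9 no change passed. With no filter on low counts Il1b, Tnf, Cxcl10, Chil3 and Retnla passed from 8 to 24 h. Il1b, Il6, Tnf, Chil3 and Retnla then passed from 24 to 72 h (edgeR adjusted p at most 0.00132). The log2 changes were close to those of the filtered fit. The unfiltered fit tested 35678 genes against 14537 and called fewer in the 24 h comparison, 3062 against 3411. Its passes are given as a dependence on the filter and not as changes shown. Tnf went from 7.41 to 5.06 and 2.55, Il1b from 7.31 to 5.21 and 3.74, and Il12b from 6.84 to 5.44 and 4.17. Il6 stood at 4.87, 5.28 and 2.51, and Cxcl10 at 1.51, 4.99 and 4.89. Retnla went from -3.88 to -6.72 and -8.30, Chil3 from -3.93 to -6.21 and -8.42, Mrc1 from -2.14 to -2.73 and -3.18, and Nos2 from 1.60 to 2.39 and 3.39. A p that misses the threshold does not show that these differences stayed the same.

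**Figure D5:**
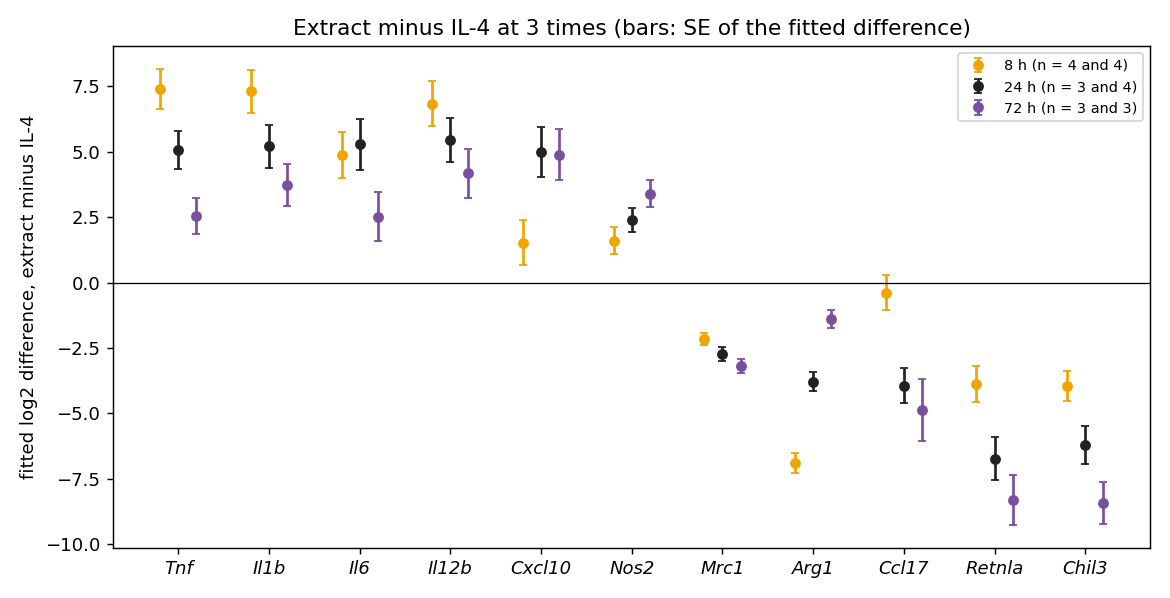
Fitted log2 difference, extract minus IL-4 (vertical axis), of 11 genes at 8, 24 and 72 h; bars are the SE of the fitted difference. Arg1 moves toward 0 from -6.88 to -1.38, and Ccl17 away from 0 after 8 h.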

How the data were processed

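RNA was taken with Trizol from the cultures, and polyadenylated RNA was read from 1 end at 50 bp from libraries made by the Diagenode CATS kit (v2), per the labels' protocols. The authors deposited counts, whole numbers of reads per gene for 46078 genes in 1 table of 44 libraries. The submitters' processing notes name cutadapt, Bowtie2, TopHat, TopHat2 2.1.1, HTSeq, DESeq and edgeR and build mm10, and for the annotation and the strand of counting the entry is: not given in the sources used here. Overlapping and antisense genes therefore cannot be told apart. The 5 summary entries were left out throughout, and ambiguous reads were 3.34% to 5.42% of gene and ambiguous reads in the 7 libraries. GENCODE M21 (GRCm38) gave symbols and positions and held 45143 of the identifiers.

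Genes passing filterByExpr (minimum count 10, 12 groups) were kept, and 1 quasi-likelihood model with TMM scaling was fitted to all 44 libraries in edgeR 4.0.16 (R 4.3.3), with 32 residual degrees of freedom and a common biological coefficient of variation of 0.219. Calls used a Benjamini-Hochberg adjusted p under 0.05 over all tested genes. Levels are TMM-scaled CPM, and folds are fitted with a prior count of 0.125. The SE of a log2 difference was worked back from the test, as its absolute value divided by the square root of the F statistic. Where a group had 1 to 3 reads in all, no fold is given.

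The comparison, the 36 gene lists and the rules were chosen with earlier results of these data known. Named genes were the 12 largest differences each way among called genes with a mean of at least 1 CPM and groups that did not overlap, up to 4 members per list with the smallest p, and 11 genes named always. Some named genes are not reported here. Alternatives were RLE size factors, no filter, a replicate block, the 7 libraries alone, each library left out and DESeq2 1.42.0. Promoter windows were found in RefSeq for 106 of the 137 named genes.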

Additional observations from a re-analysis of the deposited data

Results flagged for a closer look

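In a group of 4 libraries, a library was marked when its gap to the nearest other library was over Dixon's 95% critical share of the range of the group. Chance marks about 1 in 20 groups. Over the 137 named genes, IL-4 libraries were marked for 50 genes and unstimulated libraries for 14.

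IL-4 replicate 1 was the highest of its group for 41 of these genes. The gap was 0.99 for Il12b, 0.98 for Ndufs7, 0.97 for Gpr84 and Ndufb9, 0.96 for Il6, 0.95 for Cox4i1, 0.94 for Clec4d, H2-Eb1, Apoe and Cxcl10, 0.93 for Cxcl1, Slpi and Saa3, and 0.92 for Atp5o. It was 0.91 for U90926, Cxcl16, Traf1, Tnfsf9, Tnfsf15 and Tnf, 0.90 for Socs3, 0.89 for Pilrb1, Gm37549, Ccl4 and Acod1, 0.88 for Fpr2, Nfkbie, Tap1 and Tfeb, 0.87 for Rbp4, Irak3, H2-Aa and Ddit3, 0.86 for Lcn2, Cxcl3, Ptges and Il1b, 0.85 for Ptgs1, and 0.83 for Il1a, Il1rn and Nlrp3. Among them are genes that were higher with extract and genes of the respiratory chain. For Pilrb1, Gm37549 and U90926 the marked value of IL-4 replicate 1 is 1 read. The same library was the lowest for 6 genes, with a gap of 0.95 for Mrc1, 0.91 for Cyp51, 0.90 for Chil4, 0.89 for Pdia4, and 0.87 for Irf4 and Abca1. Its non-unique alignments per 100 gene counts were also marked, at 0.87 of the range. IL-4 replicate 2 was marked high at 1.00 for H2-Oa, and low at 0.91 for Pfkl, and 0.85 for Nos2.

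Among the unstimulated libraries, replicate 1 was marked high, with a gap of 1.00 for Adipoq, 0.96 for Cxcl10, 0.90 for Txnrd1, 0.88 for Nfkbiz and Nos2, and 0.85 for Il6 and Il12b, and low at 0.87 for Slpi, and 0.83 for Ndufb9. The mark of Adipoq is 1 read in replicate 1 against 0 in the other unstimulated libraries. Replicate 2 was marked high at 0.94 for C3ar1, and 0.88 for Il18bp, and low at 0.89 for Prdx1, and 0.85 for Timd4. Replicate 4 was marked high at 0.89 for Xbp1. The share of ambiguous reads of replicate 3 was marked at 0.90 of the range. It was 13.57%, and replicate 3 of the LPS cultures at 24 h also had a high share, 12.21%.

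The extract minus IL-4 difference itself differed between times for Arg1, which changed by log2 3.10 from 8 to 24 h and by 2.40 from 24 to 72 h, and for Ccl17, which changed by -3.56 from 8 to 24 h. These changes were tested in the fit of all libraries, and that of Ccl17 rests on few reads.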

How the results depend on the processing

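The count of called genes, 3411, was 3467 with RLE size factors, 3062 with no filter on low counts, 2767 in a fit of the 7 libraries alone and 3801 with DESeq2, and ran from 2650 to 3277 with each library left out. Genes higher with extract ran from 1503 to 1825 and genes lower from 1143 to 1595 with a library left out. For 122 of the 137 named genes each alternative that gave a value kept the direction and the side of the threshold, and no alternative reversed a named gene. The other 15 changed their call under at least 1 alternative, among them Ctss, Ctsb, Mthfd2 and Mcm2, which were not called with no filter. DESeq2 gave no adjusted p for Acod1. DESeq2 gave smaller log2 differences for Fpr2 (7.08), Cxcl3 (6.32), Tnf (4.43), Il1b (4.37), Il6 (4.20), Il12b (4.14) and Cxcl10 (3.88), all still called. With a library left out, some genes had 0 reads left in that group, so no difference is given. These were H2-Oa without IL-4 replicate 2, Aqp5 without extract replicate 2, and Gm6522, Col6a5 and Adipoq without extract replicate 4.

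With the replicate number as a block, 3551 genes were called. Deviations from the group means of same-numbered libraries correlated at 0.307 and 0.225 for numbers 2 and 3 and at -0.278 for number 4 over 11943 genes. Extract replicates 2 and 3 correlated best with their own number and replicate 4 with IL-4 replicate 1 (0.33). The labels tie the numbers to no shared source, so the numbers were not taken to pair the libraries. Deviations within a group add to 0 by construction, so these correlations cannot settle whether equal numbers share a source. Replicate 3 had a high share of ambiguous reads in several other groups, such as 16.06% unstimulated at 8 h and 17.31% with extract at 72 h. In the 2 groups compared it had 4.06% with extract and 4.56% with IL-4. With RLE size factors no list count moved by over 1.5 times. Respiratory chain genes called lower went from 10 to 1 without IL-4 replicate 1 or extract replicate 2 or 3, and to 0 in the fit of the 7 libraries alone. Small list counts also moved: Atf4-type genes higher went from 4 to 2 without IL-4 replicate 2, 3 or 4 or extract replicate 3 or 4 and to 1 with no filter, sensing receptors lower from 2 to 1 without extract replicate 2 and to 0 without replicate 3, chaperones lower from 2 to 4 without IL-4 replicate 1, IL-4 genes higher from 0 to 1 without that library or with the block, and NF-kB genes lower from 0 to 1 with DESeq2. With no filter on low counts, 5 cell cycle genes called lower became 0, 7 lysosomal genes called lower became 2, and the change with time passed for Il1b, Tnf, Cxcl10, Chil3 and Retnla from 8 to 24 h and for Il1b, Il6, Tnf, Chil3 and Retnla from 24 to 72 h.

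Depth limits the low genes: a floor of 3 reads over the 4 IL-4 libraries is 0.0642 CPM, and intervals from reads cover counting error only.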
